A study of Mus musculus with 9 samples.

Results

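The 10 genes described here make up the core of microRNA production and function in the mouse. They are the Argonautes Ago1, Ago2, Ago3 and Ago4, the TNRC6 scaffold genes Tnrc6a and Tnrc6b, and the processing and export genes Drosha, Dgcr8, Xpo5 and Dicer1. They were taken by symbol from the deposited table of gene counts, which holds 54532 genes, and all 10 were found and passed the filter on low counts. The table comes from RNA-seq of the hippocampus of N4 Ube3am-/p+ mice, an Angelman syndrome model that lacks the maternal copy of Ube3a, the gene of a ubiquitin ligase that neurons read from the maternal allele. On postnatal day 21 each mouse received, by intracerebroventricular injection, either Ant-134, an antimiR directed at miR-134 (n = 5), or Scr, a scrambled control oligonucleotide (n = 4). An audiogenic stimulus to induce seizures was given on postnatal days 22, 24 and 26. The hippocampus on the injected side was taken 24 h after the last test, with 1 mouse per library. Only mice alive after the last test could be sampled, and the paper reports a trend, not significant, to better survival with Ant-134. It also reports that some Ant-134 mice had no seizure on the first test day. All 9 mice carried the maternal Ube3a mutation, were injected and went through the seizure tests, so the libraries compare the oligonucleotides and whatever followed from them before sampling, seizure history included. No wild-type or uninjected mice and no mice kept from the seizure tests are among them, and the sex of the mice is not given by the labels.

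A microRNA is transcribed as part of a longer RNA that folds into a hairpin. Drosha and its RNA-binding partner Dgcr8 cut the hairpin out in the nucleus, Xpo5 carries it to the cytoplasm, and Dicer1 trims it to a short duplex. One strand of the duplex is loaded into an Argonaute, and the seed of that strand pairs with sites in target mRNAs. TNRC6 proteins bind the Argonaute and bring in the deadenylases that shorten and destabilise the target. An antimiR pairs with its microRNA while it sits in the Argonaute, downstream of the steps of Drosha, Dgcr8, Xpo5 and Dicer1. In neurons the machinery works in dendrites as well as in the soma, and miR-134 is known there as a regulator of dendritic spines.

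The mRNA levels of the 10 genes in the Ant-134 group lay close to those in the Scr group. By edgeR's quasi-likelihood test at an unadjusted p below 0.05, 0 of the 10 rose with Ant-134 and 0 fell. Over all genes, 1.49% of the 19782 genes tested were called higher and 2.69% lower, 4.18% in all, so a count of 0 among 10 genes is near the background. DESeq2's Wald test, the tool of the study's methods, and limma on the FPKM values called 0 of the 10 as well. The groups overlapped for every one of the 10 genes, and they did not overlap for 1.54% of the genes tested, which is again near the count of 0. The estimated log2 fold changes (Ant-134 against Scr) ran from -0.014 for Drosha to 0.094 for Ago4, with a median of 0.01, and the median over all genes tested was 0.0026. Of these estimates, 8 lay above 0 and 2 below it. The median size of the log2 fold change was 0.015 for the 10 genes, 0.028 for the other genes of the pathway described further on, and 0.068 for all genes tested, which include many with low counts. All 10 genes lay within 0.1 of 0, as did 95.5% of the other pathway genes and 62.7% of the genes tested. A 95% interval bounds each difference. The lowest bound of the 10 was a difference of -8.64%, for Ago2, and the highest was 19.2%, for Ago4.

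**Figure D1:**
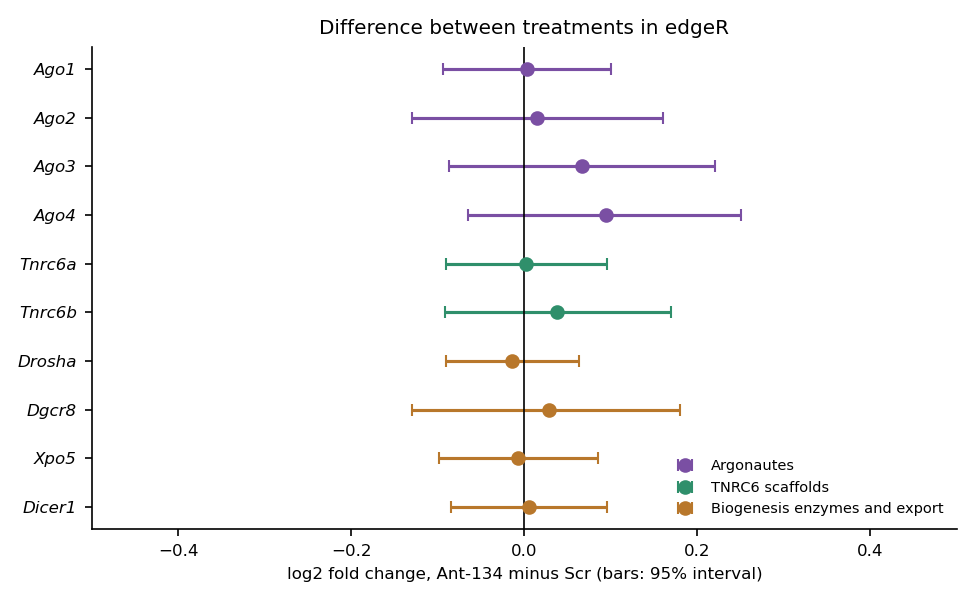
Log2 fold change of each of the 10 genes, Ant-134 minus Scr, from edgeR's quasi-likelihood fit over all genes (x axis), with bars for the 95% interval and colours for the role. Every bar crosses 0, and the bars of Drosha, Dicer1, Xpo5, Tnrc6a and Ago1 are the narrowest, within 0.1 of 0 on both sides.

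The target of the treatment is miR-134, a microRNA whose gene lies in an imprinted cluster on chromosome 12. Its sequences are shown because the seed sets which sites in the 10 genes were looked for. The hairpin spans chr12:109734139-109734209 on the plus strand of GRCm38, and its arms are in capitals in the first line. The seed, bases 2 to 8, is in capitals in the mature strands. The sequences are RefSeq's.
Mir134 hairpin: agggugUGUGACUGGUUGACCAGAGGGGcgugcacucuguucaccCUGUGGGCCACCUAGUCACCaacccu
mmu-miR-134-5p: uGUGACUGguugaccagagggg
mmu-miR-134-3p: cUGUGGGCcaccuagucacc
The 5p strand is the one that Ant-134 was designed against. The libraries were made from poly-A RNA, which does not hold mature microRNAs, and the row of Mir134 was at 0 counts in all 9 libraries, so miR-134 itself was not measured here.

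Matches to the seed of miR-134-5p were then searched for in the longest GENCODE M21 3' UTR of each of the 10 genes, on the strand of the transcript. A match was either CAGTCAC, which pairs with bases 2 to 8, or AGTCACA, which pairs with bases 2 to 7 and has an A opposite base 1. CAGTCACA holds both and was counted as 1 match, the 8-base site. Ago2, Ago3, Tnrc6b and Dicer1 held a match and the other 6 genes held none. Among the 15263 tested genes with a 3' UTR, 19.5% held a match, and 4.4% held the 8-base site. The matches are given with 11 bases before and after them where the transcript has them, and the match itself is in capitals.
Ago2, chr15:73105101-73105107, minus strand: gttacctgggaAGTCACAccctcagcagg
Ago3, chr4:126341708-126341715, minus strand: gctcgagatctCAGTCACAggcggtgtgag
Ago3, chr4:126333896-126333902, minus strand: atcatccaggcCAGTCACggccatggagc
Tnrc6b, chr15:80933601-80933607, plus strand: tgcatgtggtcCAGTCACtccacggtcca
Tnrc6b, chr15:80937186-80937192, plus strand: tcccaaatgcaAGTCACAtcatgttgcta
Dicer1, chr12:104691356-104691362, minus strand: ctgctttgcttAGTCACAggagtgcttta
Dicer1, chr12:104688585-104688591, minus strand: gttcccgtgtaCAGTCACcagcagccacc
Ago3 held the only 8-base site among the 10 genes. The genes with a match have long 3' UTRs, of 11064 bases in Ago2, 12742 in Ago3, 11609 in Tnrc6b and 3851 in Dicer1, against a median of 1164 bases among the tested genes. Of the tested genes with a 3' UTR about as long, 84.1% held a match for Ago2, 84.2% for Ago3, 83.6% for Tnrc6b and 42.8% for Dicer1. For the 6 genes without a match this share was 45.7% for Ago1, 42.0% for Ago4, 28.8% for Tnrc6a, 20.9% for Dgcr8, 17.8% for Xpo5 and 2.5% for Drosha. Drosha has the shortest 3' UTR of the 10, with 169 bases and no match. The other genes without a match also lay above the median length. Their 3' UTRs have 4491 bases in Ago1, 3682 in Ago4, 2345 in Tnrc6a, 1574 in Dgcr8 and 1327 in Xpo5. The genes with a match had log2 fold changes of 0.015 (Ago2), 0.067 (Ago3), 0.038 (Tnrc6b) and 0.0054 (Dicer1), inside the range of the 6 without one. A match is a description of the sequence and does not show that miR-134 binds there.

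Sequencing gave between 28583298 and 38431058 counted reads per library after Ant-134 and between 31985959 and 41978113 after Scr. The biological coefficient of variation over all genes was 11.9%. Markers of hippocampal principal cells were present in every library, with a summed level of 988.5 to 1154.2 CPM (counts scaled to the size of each normalised library) in the Ant-134 group and 900.9 to 1034.1 CPM in the Scr group, and edgeR called 1 of the 7 higher in the Ant-134 group. The summed level of 6 microglial markers was lower in the Ant-134 group, at 296.2 to 337.0 CPM against 345.6 to 393.6 CPM, with no overlap (two-sided exact permutation test, p = 0.0159, 1 of 11 marker lists tested, not adjusted), and edgeR called 3 of the 6 lower, where 2.69% of all genes tested were called lower. Markers of the choroid plexus, a neighbouring tissue, ran from 66.9 to 2571.0 CPM in the Ant-134 group and from 78.6 to 2022.4 CPM in the Scr group. Those of meningeal fibroblasts ran from 71.7 to 132.6 CPM and from 113.4 to 150.4 CPM (exact permutation p = 0.0556), and edgeR called 3 of the 4 lower in the Ant-134 group. No marker in the 11 lists was at 0 in all libraries. The tissue is bulk, so fewer cells of a type and less RNA per cell cannot be told apart, and the part of the cell makeup in the levels below was not tested.

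Ago1 (ENSMUSG00000041530, chr4:126435012-126468583, minus strand) encodes an Argonaute that represses targets without cutting them. Its level was 119.7, 113.3, 119.3, 125.0 and 109.5 CPM in Ant-134 replicates 1 to 5, and 119.1, 116.4, 112.5 and 120.5 CPM in Scr replicates 1 to 4. The highest and the lowest of the 9 libraries, Ant-134 replicates 4 and 5, were both in the Ant-134 group, and the Scr libraries lay between them. The means were 117.4 CPM ± 6.04 (SD, n = 5) and 117.1 CPM ± 3.53 (SD, n = 4). They differed by 0.003 on the log2 scale (SE 0.045, p = 0.947 in edgeR and 0.937 in the two-sided exact permutation test).

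Ago2 (ENSMUSG00000036698, chr15:73095844-73184935, minus strand) encodes the Argonaute that can cut a fully paired target. It was at 119.6, 128.3, 110.2, 142.9 and 128.8 CPM in the Ant-134 libraries and at 126.6, 126.8, 113.0 and 132.1 CPM in the Scr libraries. Ant-134 replicate 4 was the highest and Ant-134 replicate 3 the lowest, so the treated group spanned the control group here too. Group means of 126.0 CPM ± 12.2 (SD, n = 5) and 124.6 CPM ± 8.14 (SD, n = 4) differed by 0.015 on the log2 scale (SE 0.068, p = 0.824 in edgeR and 0.857 in the exact permutation test). The 3' end of Ago2 overlaps Chrac1 on the opposite strand, which had 376 to 576 counts per library. The strand setting of the counting is not given in the sources used here, so reads from the overlap cannot be told apart.

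Ago3 and Ago4 lie on both sides of Ago1 on chromosome 4, and all of them are on the minus strand. Ago3 (ENSMUSG00000028842, chr4:126331704-126429556) was at 75.2, 66.3, 71.6, 74.1 and 62.8 CPM in the Ant-134 libraries and at 73.0, 71.5, 57.8 and 65.1 CPM in the Scr libraries. Scr replicate 3 was the lowest, and the other 3 Scr libraries fell within the range of the Ant-134 group. Its means were 70.0 CPM ± 5.31 (SD, n = 5) and 66.8 CPM ± 6.92 (SD, n = 4). The log2 fold change was 0.067 (SE 0.072, p = 0.366 in edgeR and 0.452 in the exact permutation test), and 0.0039 without Scr replicate 3.

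Ago4 (ENSMUSG00000042500, chr4:126489541-126533472) was the least abundant of the 10 genes, with 450 to 705 counts per library. Its level was 15.3, 16.3, 16.4, 16.6 and 16.0 CPM in the Ant-134 libraries and 15.5, 16.7, 13.2 and 15.1 CPM in the Scr libraries. All 5 Ant-134 libraries were above Scr replicates 3 and 4, and the highest of all was Scr replicate 2. The mean was 16.1 CPM ± 0.497 (SD, n = 5) with Ant-134 and 15.1 CPM ± 1.44 (SD, n = 4) with Scr. This log2 fold change of 0.094 (SE 0.075), the largest of the 10, gave p = 0.226 in edgeR and 0.167 in the exact permutation test. It moved with single Scr libraries, to 0.036 without Scr replicate 3 and to 0.15 without Scr replicate 2. The edgeR p value of 0.0809 without Scr replicate 2 was the smallest of any of the 10 genes in any alternative run.

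**Figure D2:**
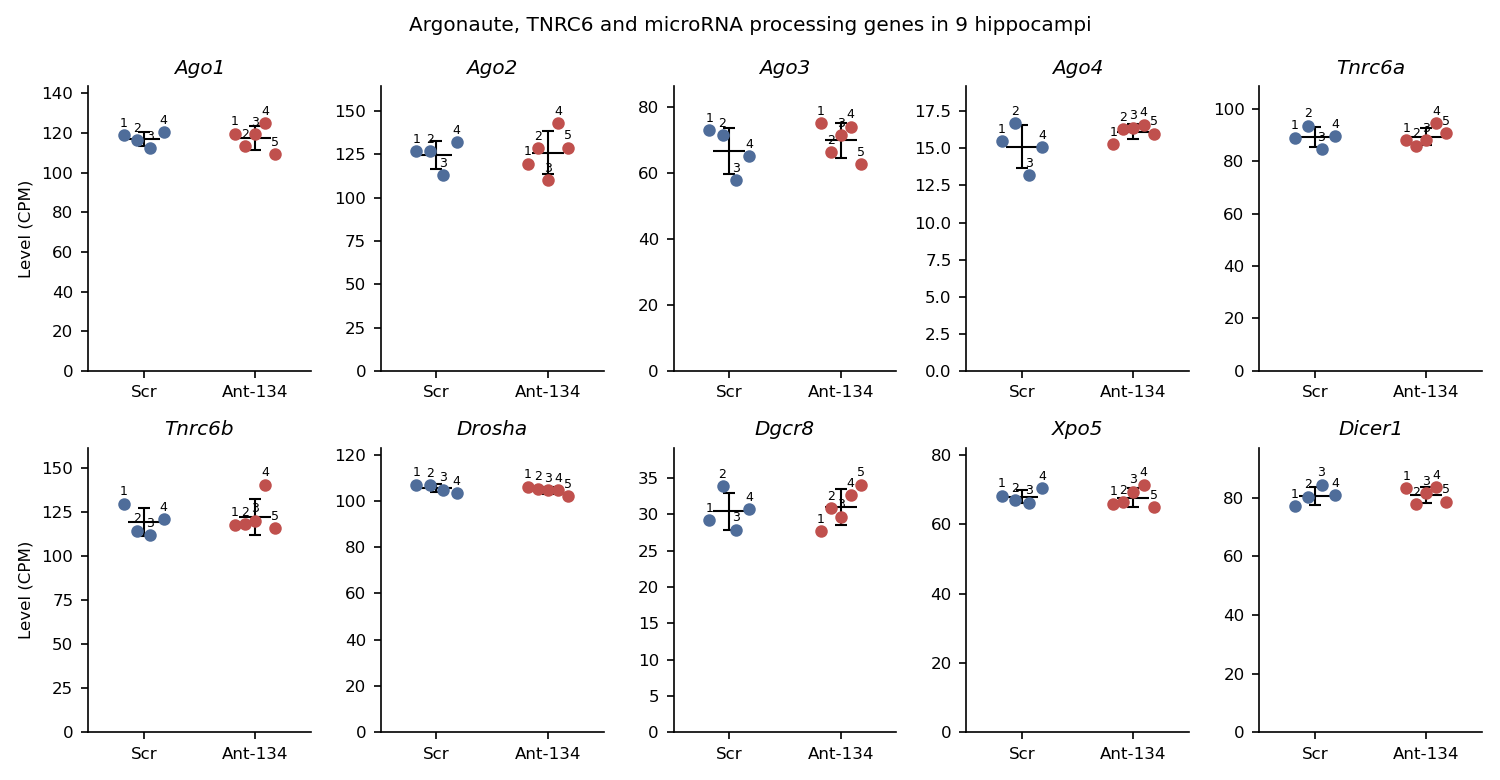
Level of each of the 10 genes in CPM (y axis, from 0) in the 4 Scr and 5 Ant-134 libraries, with 1 point per mouse, the replicate number beside it, and the group mean and SD as a line and bars. The groups overlap in every panel, and the Drosha points, from 101.9 to 107.0 CPM, lie closest together.

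Tnrc6a and Tnrc6b encode GW182 scaffolds, which bind an Argonaute at one end and the deadenylase complexes at the other. Tnrc6a (ENSMUSG00000052707, chr7:123123885-123195296, plus strand) was at 87.9, 85.9, 87.9, 94.5 and 90.7 CPM in the Ant-134 libraries and at 89.0, 93.6, 84.7 and 89.6 CPM in the Scr libraries. The groups covered almost the same range, and the means were 89.4 CPM ± 3.33 (SD, n = 5) and 89.2 CPM ± 3.65 (SD, n = 4). The log2 fold change of 0.0019 (SE 0.043, p = 0.965 in edgeR and 0.952 in the exact permutation test) was the closest to 0 of the 10. Tnrc6b (ENSMUSG00000047888, chr15:80711313-80941085, plus strand) was at 117.9, 118.1, 120.0, 140.5 and 115.7 CPM in the Ant-134 libraries and at 129.7, 114.5, 112.0 and 120.9 CPM in the Scr libraries. Ant-134 replicate 4 stood above all others, and the other 4 Ant-134 libraries lay within 115.7 to 120.0 CPM, inside the Scr range. The group means, 122.4 CPM ± 10.2 (SD, n = 5) and 119.3 CPM ± 7.87 (SD, n = 4), gave a log2 fold change of 0.038 (SE 0.061, p = 0.542 in edgeR and 0.651 in the exact permutation test). It was -0.017 without Ant-134 replicate 4. Tnrc6c, the remaining gene of the family, averaged 155.1 CPM ± 9.07 (SD, n = 5) and 153.4 CPM ± 4.88 (SD, n = 4), and its log2 fold change was 0.015 (SE 0.048, p = 0.754 in edgeR and 0.762 in the exact permutation test).

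Drosha (ENSMUSG00000022191, chr15:12824815-12935291, plus strand), the nuclear enzyme that starts microRNA processing, was the steadiest of the 10 genes. It was at 106.2, 105.3, 104.6, 104.5 and 101.9 CPM in the Ant-134 libraries and at 107.0, 106.9, 104.9 and 103.2 CPM in the Scr libraries. The highest library was 1.05 times the lowest, and the groups overlapped. Drosha averaged 104.5 CPM ± 1.62 (SD, n = 5) in the Ant-134 libraries and 105.5 CPM ± 1.8 (SD, n = 4) in the Scr libraries. The log2 fold change was -0.014 (SE 0.036, p = 0.703 in edgeR and 0.405 in the exact permutation test). The 95% interval of the difference ran from -6.1% to 4.45%.

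Dgcr8 (ENSMUSG00000022718, chr16:18253948-18289246, minus strand) encodes the partner that holds the hairpin for Drosha. Drosha is also known to cut hairpins within the Dgcr8 mRNA, and the annotated Mir1306 lies in the gene. Dgcr8 was at 27.7, 30.9, 29.7, 32.7 and 34.1 CPM in the Ant-134 libraries and at 29.2, 33.9, 27.9 and 30.7 CPM in the Scr libraries. Both extremes were Ant-134 libraries, replicate 1 at the bottom and replicate 5 at the top. It averaged 31.0 CPM ± 2.51 (SD, n = 5) and 30.4 CPM ± 2.61 (SD, n = 4), a difference of 0.028 on the log2 scale (SE 0.072, p = 0.705 in edgeR and 0.69 in the exact permutation test). Dgcr8 overlaps Trmt2a at its 3' end on the opposite strand, a gene with 1316 to 2125 counts per library, so its counts carry the same limit as those of Ago2. Its 3' part also lies within the span of AC084822.2, a gene model on the same strand that had 0 counts in every library, so how reads from that stretch were assigned cannot be told, and the level of Dgcr8 and its ratio to Drosha are uncertain to that extent.

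Xpo5 (ENSMUSG00000067150, chr17:46202782-46243598, plus strand) encodes the export receptor for the cut hairpins. Its level was 65.9, 66.3, 69.4, 71.4 and 64.9 CPM in the Ant-134 libraries and 68.2, 67.0, 66.2 and 70.4 CPM in the Scr libraries. The Scr values lay within the Ant-134 range. The means of 67.6 CPM ± 2.69 (SD, n = 5) and 67.9 CPM ± 1.83 (SD, n = 4) gave a log2 fold change of -0.0072 (SE 0.043, p = 0.869 in edgeR and 0.833 in the exact permutation test). Dicer1 (ENSMUSG00000041415, chr12:104687742-104751952, minus strand) encodes the cytoplasmic enzyme that makes the mature duplex. It was at 83.4, 77.9, 81.5, 83.7 and 78.7 CPM in the Ant-134 libraries and at 77.1, 80.4, 84.5 and 81.0 CPM in the Scr libraries. Here the Ant-134 values lay within the Scr range. Averages of 81.1 CPM ± 2.65 (SD, n = 5) and 80.7 CPM ± 3.02 (SD, n = 4) corresponded to a log2 fold change of 0.0054 (SE 0.042, p = 0.899 in edgeR and 0.865 in the exact permutation test).

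Adjusted p values over all genes tested (edgeR, Benjamini-Hochberg) were 0.998 or more for each of the 10 genes. A p value that misses the threshold does not show that the levels were equal, and the intervals give what these 9 libraries allow. For Drosha, Xpo5, Dicer1, Tnrc6a and Ago1 they exclude a difference of more than 7.16% either way, and for Ago3 and Ago4 a rise of up to 16.6% and 19.2% lies within them.

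Levels of different genes were compared on the deposited FPKM values, which are counts per length and per library size. The lengths are those in the deposited table, such as 5935 bases for Drosha, 8120 for Ago1 and 14031 for Ago2. The lengths of the transcripts present were not measured, so the order below holds for these lengths only. Drosha was the most abundant, at 17.5 FPKM ± 0.272 (SD, n = 9), followed by Ago1 at 14.3 FPKM ± 0.572. Next came Xpo5 at 9.78 FPKM ± 0.308 and Ago2 at 8.85 FPKM ± 0.699, whose ranges overlapped although Xpo5 was the higher in 9 of 9 libraries. Tnrc6a followed at 6.96 FPKM ± 0.246. Tnrc6b at 5.06 FPKM ± 0.368 and Dicer1 at 4.78 FPKM ± 0.151 overlapped, with Tnrc6b higher in 8 of 9 libraries. Ago3 at 4.1 FPKM ± 0.353 and Dgcr8 at 3.96 FPKM ± 0.308 could not be ordered, since Ago3 was the higher in 4 of 9 libraries. Ago4 was last at 2.23 FPKM ± 0.155, below every library of every other of the 10 genes. No other neighbours in this order overlapped. Against all genes tested, the 10 genes lay between the percentile 42.3 (Ago4) and 84.8 (Drosha) of mean FPKM. Tnrc6c, at 11.9 FPKM ± 0.526, was the most abundant of the TNRC6 family, and Tnrc6a was 1.38 ± 0.0827 times as high as Tnrc6b. Drosha, which works in a complex with Dgcr8, was 4.45 ± 0.376 times as high as Dgcr8 in mRNA, with a range of 3.87 to 4.97 over the libraries.

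**Figure D3:**
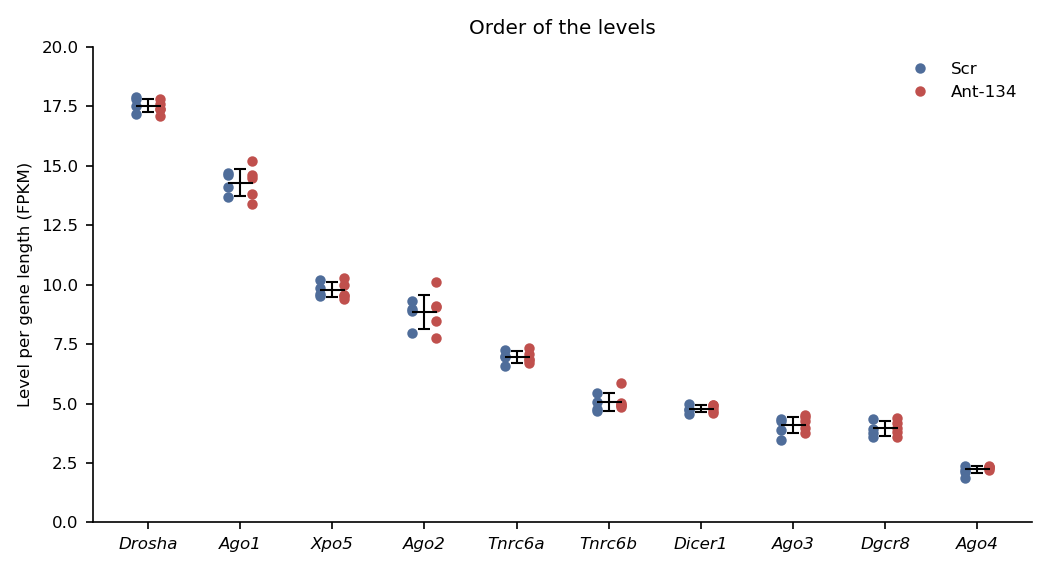
Level per gene length in FPKM (y axis, from 0) of the 10 genes in order of their mean, with 1 point per library (Scr left, Ant-134 right) and the mean and SD over all 9 libraries as a line and bars. Drosha and Ago1 stand apart at the top and Ago4 at the bottom, and the ranges of Xpo5 and Ago2, Tnrc6b and Dicer1, and Ago3 and Dgcr8 overlap.

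Argonautes compete for the same microRNAs, so the makeup of the family was asked for as well. Ago1 was the largest part of the summed Argonaute FPKM in every library, from 46.9% to 50.7%, followed by Ago2 with 26.9% to 31.9%, Ago3 with 12.8% to 15.1% and Ago4 with 6.96% to 8.1%. The order was the same in all 9 libraries, but it depends on the gene lengths used. In CPM, which leaves length out, Ago2 averaged 126.0 (Ant-134) and 124.6 (Scr), and Ago1 117.4 and 117.1. The Ago1 share was 48.2% ± 1.41 (SD, n = 5) after Ant-134 and 48.9% ± 1.33 (SD, n = 4) after Scr, and the Ago2 share was 29.9% ± 2.19 and 30.1% ± 0.657. The Ago3 share was 14.1% ± 0.828 and 13.6% ± 0.914. The Ago4 share was 7.75% ± 0.37 and 7.35% ± 0.443, a difference of 0.4 percentage points with an exact rank interval (coverage 96.8%) from -0.00999 to 1.01. In the two-sided exact permutation test the p values were 0.476 for Ago1, 0.913 for Ago2, 0.452 for Ago3 and 0.175 for Ago4. The log2 ratio of Tnrc6a to Tnrc6b was 0.447 ± 0.0795 (SD, n = 5) against 0.481 ± 0.103 (SD, n = 4), and that of Drosha to Dgcr8 was 2.13 ± 0.137 against 2.17 ± 0.117 (exact permutation p = 0.611 and 0.619). Over these 6 tests the smallest Benjamini-Hochberg value of the exact permutation test was 0.743. The Ago4 share depended on Scr replicate 2, the Scr library with the highest Ago4 share at 7.98%, because without it the difference was 0.608 percentage points (exact permutation p = 0.0357, before adjustment).

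**Figure D4:**
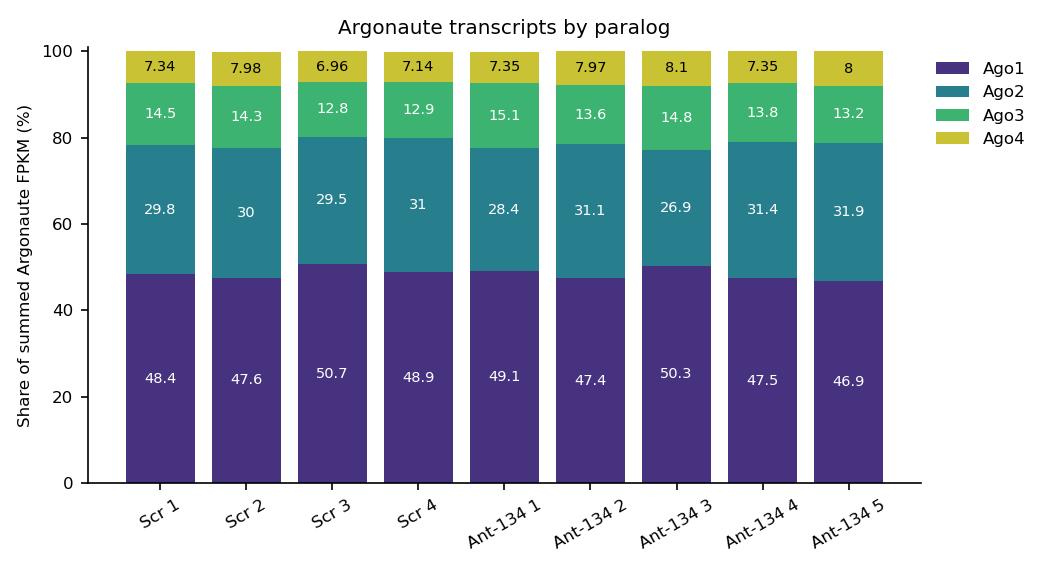
Share of each Argonaute in the summed FPKM of Ago1 to Ago4 (y axis, %, from 0 to 100) in each of the 9 libraries, with the share printed in each segment. Ago1 takes the largest segment in every library and Ago4 the smallest, and the Ago1 share lies between 46.9% and 50.7% over both groups.

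The 10 genes varied little between mice. Their coefficient of variation over the 9 libraries ran from 1.6% for Drosha to 8.61% for Ago3, with a median of 5.53%, next to a median of 6.04% for the 7474 tested genes with a mean CPM in the same range. Xpo5 (3.28%), Dicer1 (3.26%), Tnrc6a (3.64%) and Ago1 (4.08%) were on the steady side, and Ago4 (6.97%), Tnrc6b (7.3%), Dgcr8 (7.85%) and Ago2 (7.95%) on the variable side. Certain libraries held many of the extremes. Ant-134 replicate 4 was the highest library for 5 of the 10 genes (Ago1, Ago2, Tnrc6a, Tnrc6b and Xpo5) and above the mean for 9, with a median deviation of 0.088 on the log2 scale. Scr replicate 3 was the lowest for 4 of them (Ago3, Ago4, Tnrc6a and Tnrc6b) and above the mean for 1, Dicer1, for which it was the highest, with a median deviation of -0.092. Ant-134 replicate 5 was the lowest for 3 of them (Ago1, Drosha and Xpo5). Without Ant-134 replicate 4 the log2 fold changes of Ago1 and Ago2 were -0.022 and -0.035, and without Scr replicate 3 they were -0.016 and -0.028. Of the 11 marker lists, the sum of hippocampal principal cells was also highest in Ant-134 replicate 4 (1154.2 CPM) and lowest in Scr replicate 3 (900.9 CPM). The neuron sum was highest in Ant-134 replicate 4 (3332.8 CPM) but lowest in Scr replicate 2 (2953.3 CPM). Astrocyte markers were lowest in Scr replicate 3 (1872.0 CPM) and highest in Scr replicate 1 (2554.9 CPM). The part of these sums in the deviations was not tested.

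Whether the 10 genes vary together was asked over the 9 libraries, for all 45 pairs. The median Pearson r was 0.32, and 34 pairs had an r above 0. By the permutation test 8 pairs had p below 0.05 for Pearson's r and 4 for Spearman's rho, and 0 pairs passed Benjamini-Hochberg adjustment (smallest adjusted value 0.205 and 0.374). The same share among pairs of other genes was not computed, so these counts are a description, and they include Ant-134 replicate 4 and Scr replicate 3, which were high and low for most of the 10 genes. The closest pair was Ago1 with Xpo5 (r = 0.843, permutation p = 0.0046; rho = 0.75, permutation p = 0.0255), and r was 0.759 without the 2 libraries farthest from the median of Ago1 and 0.847 within the groups. Ago1 with Tnrc6b had r = 0.756 (permutation p = 0.0153; rho = 0.733, permutation p = 0.0311), and r was 0.747 without the 2 farthest libraries and 0.767 within the groups. Ago3 with Ago4, neighbours of Ago1 on chromosome 4, had r = 0.662 (permutation p = 0.0465; rho = 0.367, permutation p = 0.336). That r was 0.186 without the 2 farthest libraries and so rested on them.

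The other genes of the pathway were taken from a list of 67 genes in 5 roles, of which 66 were tested and 1, Lin28a, had too few counts. By edgeR's test, at the same threshold, 0 of the 66 were called in either direction, against 4.18% of all genes tested. DESeq2 called 1 of them, Hsp90ab1, where it called 1027 of the 37435 genes it tested. The study's own list of upregulated genes, from the same data, also holds Hsp90ab1. Its log2 fold change was 0.068 in edgeR (p = 0.0972 in edgeR and 0.0556 in the exact permutation test). The groups overlapped for all 66 tested genes, and they did not overlap for 1.54% of all genes tested. Both counts are near their background. Their log2 fold changes had a median of 0.019, with 47 above 0, 19 below it and 63 within 0.1 of it. Among the nuclear processing cofactors (9 genes, median 0.028) the smallest p values were those of the helicase gene Ddx5, at 0.03 on the log2 scale (p = 0.471 in edgeR and 0.341 in the exact permutation test), and of Hnrnpa1, which binds certain hairpins, at 0.032 (0.491 and 0.484). Ran, whose product drives export through Xpo5, was at 0.036 and matched Hnrnpa1 in its edgeR p value to 3 digits. Without Scr replicate 3 Hnrnpa1 was at -0.0024, and Ddx5 was at 0.015 without Scr replicate 1 and at 0.056 without Scr replicate 2. Dicer partners and Argonaute loading factors (11 genes) had the highest median, 0.039, with 10 estimates above 0. The loading chaperone Hsp90aa1 averaged 864.0 CPM ± 40.4 (SD, n = 5) and 810.7 CPM ± 56.1 (SD, n = 4), and its log2 fold change was 0.092 (SE 0.051, p = 0.094 in edgeR and 0.135 in the exact permutation test). Its co-chaperone Stip1 averaged 146.9 CPM ± 6.5 (SD, n = 5) and 138.2 CPM ± 6.77 (SD, n = 4), and its log2 fold change was 0.088 (SE 0.047, p = 0.0788 in edgeR and 0.103 in the exact permutation test). Without Scr replicate 4 edgeR called Hsp90aa1, Stip1 and Hsp90ab1, another form of the chaperone, at unadjusted p values of 0.0102, 0.0351 and 0.0398 (0.958 each after Benjamini-Hochberg adjustment). Hsp90aa1 was then at 0.14 on the log2 scale. In that run edgeR called 973 of 20089 genes, a share close to that of 3 in 66. Without Scr replicate 1 the p values were 0.234 for Hsp90aa1 and 0.204 for Stip1.

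Among the deadenylation, decapping and repression genes (26 genes, median 0.0074) the deadenylase gene Cnot6 and the decapping enzyme gene Dcp2 had the smallest p values, 0.194 and 0.215 in edgeR, at log2 fold changes of 0.059 and 0.067. Dcp2 was at 0.04 without Ant-134 replicate 4, 0.039 without Scr replicate 2 and 0.11 without Scr replicate 4. Among the genes of microRNA and Argonaute turnover (14 tested, median 0.02) the exonuclease gene Eri1 was at 0.12 (p = 0.16 in edgeR and 0.167 in the exact permutation test), and at 0.065 without Scr replicate 3. Trim71, an RNA-binding ubiquitin ligase gene with 53 to 66 counts per library, was at 0.2 (p = 0.215 in edgeR, p = 0.0317 in the two-sided exact permutation test, not adjusted and 1 of 66 genes so tested). Lin28b, which blocks the processing of certain hairpins and had 63 to 120 counts per library, had the largest estimate of the list by size, at -0.24 (p = 0.227 in edgeR and 0.317 in the exact permutation test). Among the neuronal RNA-binding partners (6 genes, median 0.024) Fmr1, the fragile X gene, averaged 71.9 CPM ± 3.23 (SD, n = 5) and 67.7 CPM ± 1.97 (SD, n = 4). Its log2 fold change of 0.088 (SE 0.044) had the smallest edgeR p value of the list, 0.0671, and an exact permutation p of 0.0556. Across the runs without each library its estimate lay between 0.063 and 0.1 and the edgeR p value between 0.0456 and 0.167, below 0.05 without Ant-134 replicate 1 or replicate 5 (0.0456 and 0.0474) and highest without Scr replicate 2.

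**Figure D5:**
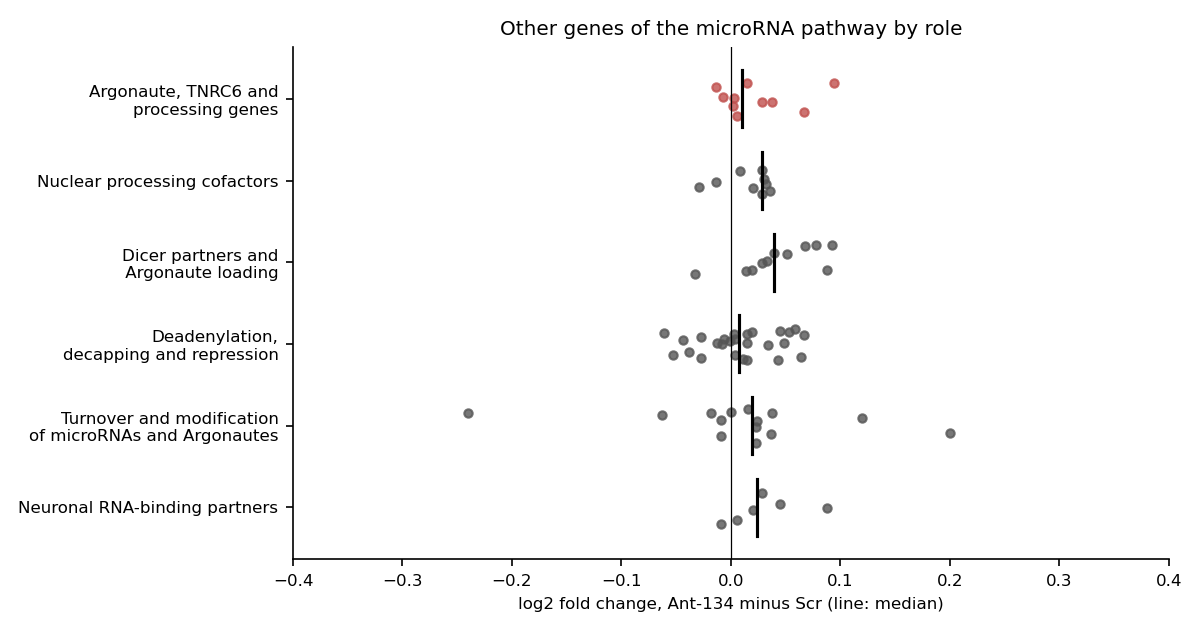
Log2 fold change, Ant-134 minus Scr (x axis), of the 10 genes (top row) and of the 66 tested genes of the pathway list by role, with 1 point per gene and a vertical line at the median. The medians lie between 0.0074 and 0.039, and the points beyond 0.1 belong to the turnover genes Eri1, Trim71 and Lin28b.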

How the data were processed

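RNA-seq counts and FPKM values of 9 hippocampi were used. According to the submitters' processing notes and the methods of the study, base calls came from CASAVA 1.8, clean paired-end reads from poly-A-selected libraries were mapped to GRCm38 (mm10) with HISAT2 2.0.5, and featureCounts 1.5.0-p3 counted them per gene. The authors deposited the counts without normalization. The FPKM values that the authors deposited equalled the counts divided by gene length and library total, times 1 constant per library between 0.9778 and 1.007. Gene lengths and positions are those in the deposited table. Every value column was matched to a sample by name, and 0 others were left over.

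Counts were analysed with edgeR 4.0.16 (filterByExpr with a minimum count of 10, TMM, robust quasi-likelihood test without covariates) in R 4.3.3. Genes were called at an unadjusted p below 0.05, the threshold of the study, and Benjamini-Hochberg values cover all genes tested. CPM uses the TMM-normalised library sizes. Shares, ratios and marker sums were compared with two-sided exact permutation tests (scipy 1.17.1) over all 126 ways of dividing 9 libraries into 5 and 4, whose smallest p is 0.00794. Alternatives were DESeq2 1.42.0 without a filter, its size factors in edgeR, no filter, a filter of at least 10 counts in each library, no robust estimation, a covariate of Y-linked gene levels, the replicate number as a block, and each library left out. FPKM values were also fitted with limma 3.58.1, as log2(FPKM + 1) or log2(FPKM + 0.1) for genes with a mean of at least 0.1 FPKM, and as log2(FPKM + 1) for every gene. The pseudocount makes the fold change of a low gene too small. The fits were tested on simulated data. Libraries of the same group all differed by more than counting noise. PCR duplicates cannot be told apart, so counting error alone is a lower limit of the error.

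Named genes are the 10 genes, Tnrc6c, every gene of the pathway list with an unadjusted p below 0.05, and the 2 with the smallest p in each of its 5 roles. A gene within this rule is not reported here. The rule does not cover Hsp90ab1, Ran, Lin28a and Lin28b, which were picked once their values were known. Tent2 was matched through its older symbol, Papd4. The genes and lists were chosen with earlier results of these data known. Matches to the seed were searched in 3' UTRs of GENCODE M21.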

Additional observations from a re-analysis of the deposited data

Results flagged for a closer look

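Single libraries stood apart from their group in 9 of the 78 groups of 4 or 5 values examined by Dixon's criterion, which flags about 1 in 20 by chance, or 3.9 groups here. Of the 10 genes only Tnrc6b had such a value, 140.5 CPM in Ant-134 replicate 4, where the other Ant-134 libraries had 115.7 to 120.0 CPM. In the pathway list, Hnrnpa1 was at 220.0 CPM in Scr replicate 3 against 242.3 to 244.5 CPM in the other Scr libraries, and Hsp90aa1 was at 894.1 CPM in Scr replicate 4 against 776.8 to 792.9 CPM.

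The other values that stood apart were sums of marker genes. The microglial sum was 393.6 CPM in Scr replicate 1 against 345.6 to 349.6 CPM in the other Scr libraries. The choroid plexus sum was 2571.0 CPM in Ant-134 replicate 1, against 66.9 to 679.2 CPM in the rest of its group. In Ant-134 replicate 3 the erythrocyte sum was 403.1 CPM against 69.0 to 115.7 CPM, and the thalamus sum was 127.4 CPM against 73.0 to 88.1 CPM. The thalamus sum was 94.7 CPM in Scr replicate 3 against 82.4 to 83.6 CPM. The sum of activity-regulated genes was 446.3 CPM in Ant-134 replicate 5 against 299.2 to 331.6 CPM. Of these libraries, Scr replicate 3 was the lowest for 4 of the 10 genes and Ant-134 replicate 5 for 3. The part of these sums in the levels of the 10 genes was not tested.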

How the results depend on the processing

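In edgeR, DESeq2 and limma, and without each library in turn, 0 of the 10 genes were called. Over the 190 alternative estimates the log2 fold changes lay between -0.035 and 0.15, and 25 had the other sign from the estimate reported, all of them in genes whose estimates lay within 1 SE of 0. Estimates without each library in turn ran from -0.022 to 0.027 for Ago1, -0.035 to 0.059 for Ago2, 0.0039 to 0.11 for Ago3, 0.036 to 0.15 for Ago4, -0.022 to 0.026 for Tnrc6a, -0.017 to 0.077 for Tnrc6b, -0.024 to -0.005 for Drosha, -0.012 to 0.086 for Dgcr8, -0.029 to 0.011 for Xpo5, -0.02 to 0.028 for Dicer1, -0.0024 to 0.048 for Hnrnpa1 and -0.015 to 0.043 for Tnrc6c. With at least 10 counts in every sample Tnrc6a was at -0.00063, and with the covariate of Y-linked gene levels Ago1 was at -0.0013 and Dicer1 at -0.0045. The cause of these shifts was not tested.

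Over all genes, the 827 calls became 1775 in edgeR without a filter and 1561 in limma without a filter, where 37454 genes were tested, and 629 to 973 without each library. The 0 genes past adjustment in edgeR became 14 without a filter, 16 in DESeq2, 17 without Ant-134 replicate 1, 1 without each of Ant-134 replicates 2, 3 and 4, and 0 without each other library. For the pathway list the count of calls was 1 in DESeq2 and 0 to 3 without each library, with Stip1 called without Ant-134 replicate 3.

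Same-numbered libraries did not deviate together. The correlations of their deviations lay between -0.115 and 0.012, and 0 of the 4 Scr libraries correlated best with its own number. The paper calls the Scr mice littermates, and the labels do not say whether equal numbers share a litter or a batch. These correlations cannot exclude it. With the replicate number as a block (Ant-134 replicate 5 left out) 810 genes were called, 2 passed adjustment, and the pathway list had 2 calls, Hsp90aa1 at 0.1 and Lin28b at -0.38 on the log2 scale (edgeR p values of 0.0372 and 0.0324). With the block, Tnrc6a was at -0.0035, Dgcr8 at -0.0072 and Xpo5 at 0.0065, and the log2 ratio of Drosha to Dgcr8 differed by 0.00146 (exact sign-flip test over pairs, p = 1.0, where 4 pairs cannot go below 0.125).

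Without each library in turn, differences in share ran from -1.2 to -0.0821 percentage points for Ago1, -0.656 to 0.609 for Ago2, 0.161 to 0.745 for Ago3 and 0.269 to 0.608 for Ago4. The difference in log2 ratio ran from -0.076 to 0.00791 for Tnrc6a to Tnrc6b and from -0.0902 to 0.00146 for Drosha to Dgcr8. With the 8-base site alone 1 of the 10 genes held a match, and with any annotated 3' UTR 4 did. Depth limits Ago4 most among the 10 genes, and Trim71 and Lin28b, with at most 120 counts per library, more.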
